A study of Mus musculus with 7 samples.

Results

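Proteasome and ubiquitin enzyme genes were compared between the paracardial depot (pCF), which lies next to the heart, and the intra-abdominal depot (iVF) of wild-type C57 male mice. The members were chosen by gene symbol alone: the subunit, activator and chaperone families Psma, Psmb, Psmc, Psmd, Psme and Psmg, the ubiquitin-activating genes (Uba followed by a digit), the conjugating genes (Ube2), and the deubiquitinases Uch and Usp. Pseudogene symbols were left out, as were Psmb11 and Usp18. This gave 48 genes of 9294 tested. Total RNA of 4 pCF and 3 iVF samples was hybridised to Affymetrix arrays, and each value is the authors' deposited log2 expression value for a probe on an array. No treatment, transgene or age is named in the labels, and both depots carry the same genotype. Each sample is labelled as a biological replicate, but no label ties it to an animal of its own, so the p-values reflect sample-to-sample spread that may be technical.

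Ubiquitin is a small protein that marks other proteins. An activating enzyme (E1) charges it, a conjugating enzyme (E2) carries it, and a ligase places it on the target. Chains of it lead the target to the proteasome, a barrel (the 20S core) with proteolytic sites inside, capped by a regulatory particle (19S) that unfolds proteins with a ring of ATPases. Deubiquitinases remove the mark, some of them on the proteasome itself. In cells that meet interferon, and constitutively in lymphoid cells, the catalytic core subunits are exchanged for immunoproteasome subunits. In adipocytes the proteasome turns over enzymes and regulators of lipid handling.

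Promoter sequences were taken from RefSeq (GRCm38.p6) for the 3 genes that passed the depot test, Uchl5, Uchl3 and Psmc6, and for Ube2c, the gene with the largest difference among the members. Each line gives the 250 bases before the start site in lower case. Capitals mark matches to the motifs searched on both strands: TGACNNNGC (core of the antioxidant response element, which Nfe2l1 and Nfe2l2 read), CCAAT (read by NF-Y), TTTGAA and TTTAAA (forms of the cell cycle homology region), TTCNNNGAA (gamma-activated sequence) and, by name, the interferon-stimulated response element core. The windows are chr1:143777028-143777277 (plus strand) for Uchl5, chr14:101653717-101653966 (plus) for Uchl3, chr14:45329574-45329823 (plus) for Psmc6 and chr2:164769679-164769928 (plus) for Ube2c.
Uchl5: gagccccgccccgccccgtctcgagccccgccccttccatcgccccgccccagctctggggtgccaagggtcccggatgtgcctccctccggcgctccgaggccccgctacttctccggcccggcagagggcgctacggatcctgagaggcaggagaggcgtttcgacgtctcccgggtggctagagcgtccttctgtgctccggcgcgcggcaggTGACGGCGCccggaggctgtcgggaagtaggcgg
Uchl3: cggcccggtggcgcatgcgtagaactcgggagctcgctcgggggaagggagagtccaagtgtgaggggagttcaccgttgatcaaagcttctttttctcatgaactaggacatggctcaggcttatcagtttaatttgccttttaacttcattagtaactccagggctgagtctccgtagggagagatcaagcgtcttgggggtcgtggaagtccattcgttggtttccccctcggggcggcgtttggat
Psmc6: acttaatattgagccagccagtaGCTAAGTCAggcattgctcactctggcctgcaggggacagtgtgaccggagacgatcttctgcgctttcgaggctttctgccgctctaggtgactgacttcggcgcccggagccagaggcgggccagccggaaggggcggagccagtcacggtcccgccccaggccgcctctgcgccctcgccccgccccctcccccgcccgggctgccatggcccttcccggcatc
Ube2c: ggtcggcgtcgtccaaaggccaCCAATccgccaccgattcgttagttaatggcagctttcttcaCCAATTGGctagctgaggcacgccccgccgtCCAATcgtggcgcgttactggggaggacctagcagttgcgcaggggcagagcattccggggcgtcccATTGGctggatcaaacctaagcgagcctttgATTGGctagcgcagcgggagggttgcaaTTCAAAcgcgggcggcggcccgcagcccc

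A match is a description of letters and not a bound site. The Uchl5 window held 1 TGACNNNGC match beginning 34 bases before the start site, and the Psmc6 window held 1 on the other strand beginning 227 bases before it. The Uchl3 window held none of the 6 motifs. In Ube2c there were 6 CCAAT matches, of which a pair overlaps on opposite strands, and 1 TTTGAA match on the minus strand beginning 29 bases before the start site. As many CCAAT matches occurred in 0.0578% of all 32851 windows, and no other member had more than 3. RefSeq windows were matched for 37 of the 48 members, with 39 windows in all. TGACNNNGC was found in 12.8% of the member windows and 10.2% of all windows, CCAAT in 25.6% and 33.8%, TTTGAA in 10.3% and 16%, and TTTAAA in 10.3% and 12.1%. TTCNNNGAA was found in 7.69% and 7.02%, among the members in Psmb8, Ube2cbp and Ube2z, and the interferon-stimulated response element core in 0 of the 39 member windows and 2.98% of all windows.

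The arrays were not alike within a depot. pCF array 4 and iVF array 3 shared the highest array maximum (19.93, against 19.81 to 19.84 on the other 5), and they are called the high-ceiling pair here. Over all genes, iVF array 3 correlated 0.79 and 0.83 with iVF arrays 1 and 2, which correlated 0.98 with each other. By contrast, pCF array 4 correlated 0.95 with each of pCF arrays 1 to 3. iVF array 1 correlated 0.90 to 0.95 with the pCF arrays, higher than with iVF array 3. No member lay within 0.1 of an array's maximum. Adipocyte markers were lower in pCF, with 8 of 11 past the threshold and medians of 6.02 to 9.68 on the pCF arrays against 14.41 to 16.02 on the iVF arrays, so the defining markers of fat cells were lower on the arrays labelled paracardial fat. Endothelial markers were also lower in pCF (2 of 4 passed; medians 5.31 to 6.98 against 8.73 to 11.25). No macrophage marker passed (0 of 7; 6.82 to 8.84 against 8.67 to 11.80), nor any of 7 B cell, 4 brown adipocyte, 3 mesothelial and 1 muscle markers. Higher in pCF were thymocyte markers (2 of 6 passed; medians 11.10 to 13.97 against 5.96 to 9.98), thymic epithelial markers (5 of 7; 10.08 to 11.78 against 5.34 to 8.19), T and NK cell markers (3 of 5; 8.50 to 11.81 against 5.19 to 6.93) and cell cycle genes (4 of 4; 10.18 to 12.22 against 5.87 to 8.18). The part of these cell types in the results below was not tested. In whole depots, fewer cells of a type and less RNA per cell cannot be told apart.

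Of the 48 members 3 were higher in pCF, the deubiquitinases Uchl5 and Uchl3 and the ATPase subunit Psmc6, and none was lower. That is 6.25% of the members, and over all 9294 genes 6.25% (581) were higher and 2.91% (270) lower, so the share of members called was the share over all genes. With the dimmest 25% of genes left out, it was 6.82% of the members against 9.37% of all genes kept. The test was limma over all 7 arrays with Benjamini-Hochberg adjustment over all genes and a threshold of 0.05. At an unadjusted p under 0.05 there were 12 members higher and 0 lower, against 16.1% and 8.31% of all genes. The pCF arrays all lay above the iVF arrays for 11 members (22.9%), where this held for 18% of all genes, and all below for 0 members, against 8.78% of all genes. The median difference, pCF minus iVF, was 0.49 over the members and 0.13 over all genes, and 39 of 48 members had a positive difference against 60.6% of all genes. These numbers depended on the scaling. The median over all genes moved from 0.13 to -0.02 when arrays were centred on their medians. The members' median was then 0.33 with 35 positive. It was 0.13 with 31 positive after quantile normalization was applied again, and 0.13 with 31 positive after cyclic loess. Over all 9294 genes the medians were then 0.006 and 0.04, with 4690 and 4949 genes positive. After centring, 4489 of all genes were positive. The count of all genes higher in pCF fell from 581 to 134, 255 and 266 without pCF arrays 1, 2 and 3, and to 378 and 114 without iVF arrays 1 and 2.

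**Figure D1:**
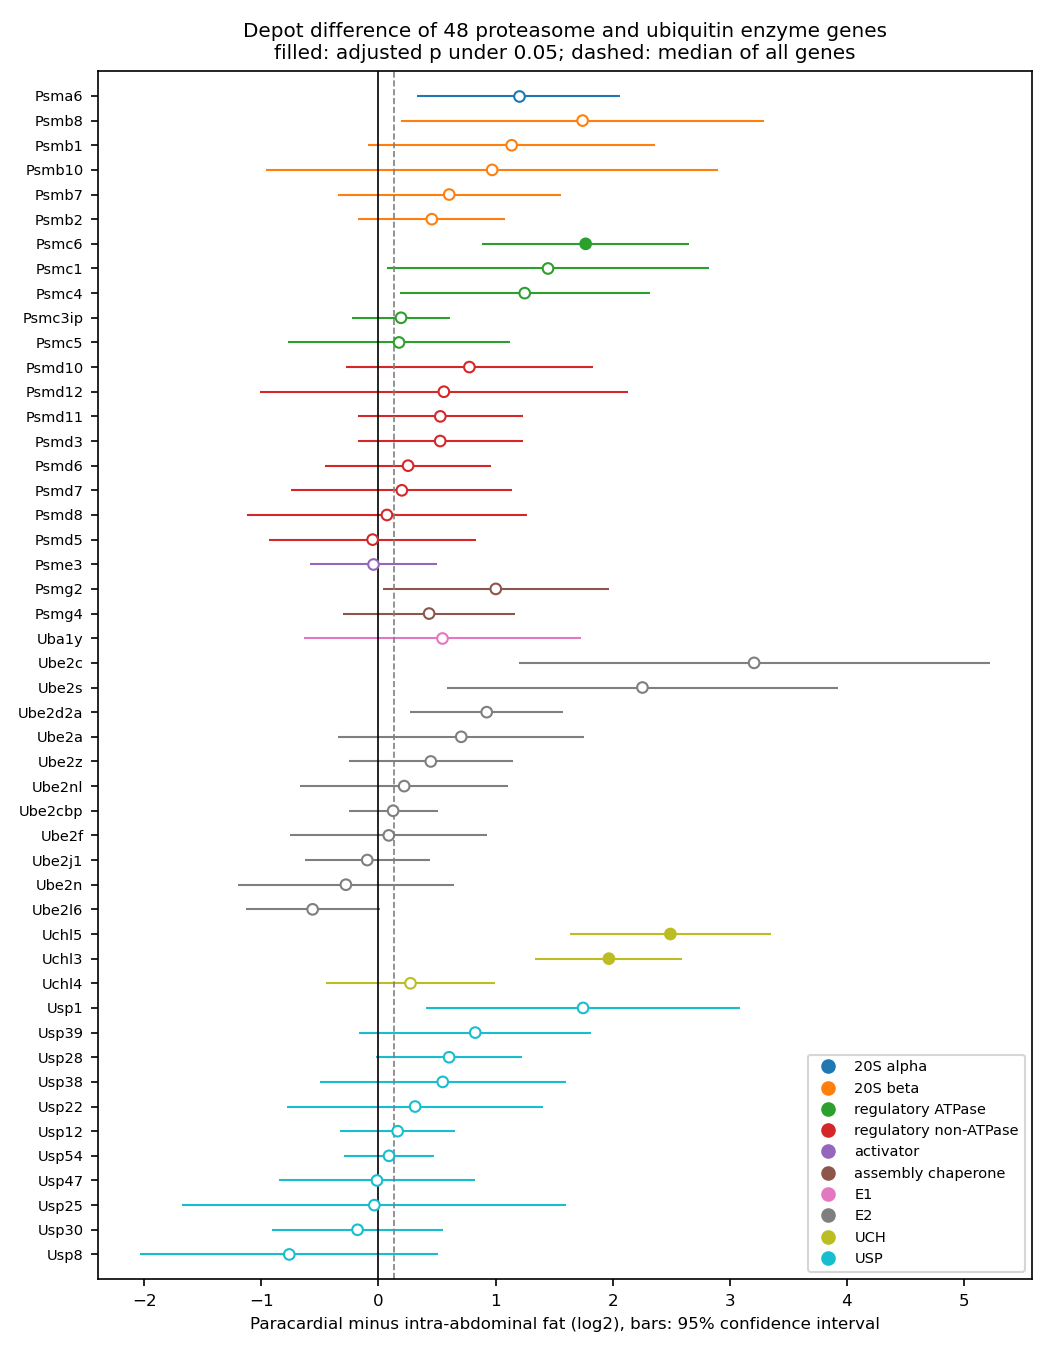
Depot difference (pCF minus iVF, log2, horizontal axis) of each of the 48 members with its 95% confidence interval, coloured by the class its symbol prefix gives (Psmc3ip and Ube2cbp, though so coloured, are no ATPase subunit and no E2); filled points passed the limma test after adjustment over all genes, and the dashed line is the median of all genes, 0.13. The filled points are Uchl5 (2.49), Uchl3 (1.97) and Psmc6 (1.77), while Ube2c (3.21) has the largest difference and a wide interval.

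The ubiquitin C-terminal hydrolases held 2 of the 3 genes called. Uchl5 encodes a deubiquitinase that docks on the regulatory particle of the proteasome and trims chains from bound proteins. Its log2 value was 10.28, 10.69, 10.96 and 10.72 on pCF arrays 1 to 4 and 8.18, 7.46 and 8.87 on iVF arrays 1 to 3. The depots did not overlap, and the gap between them was wider than the spread within either. Its difference was 2.49 with a standard error of 0.36 and a 95% interval of 1.64 to 3.35 (limma adjusted p = 0.0141). It was 2.82 among the 5 other arrays and 1.85 within the high-ceiling pair, and the adjusted p was 0.00687 to 0.0464 whichever array was left out.

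Uchl3 encodes a small hydrolase that frees ubiquitin and the related modifier Nedd8 from short adducts. Its values were 9.57, 9.81, 9.89 and 9.49 on pCF arrays 1 to 4 and 8.09, 7.20 and 7.87 on iVF arrays 1 to 3. The pCF mean was 9.69 ± 0.19 (SD, n = 4) and the iVF mean 7.72 ± 0.46 (SD, n = 3), and every pCF array was above every iVF array. The difference was 1.97 with a standard error of 0.26 and a 95% interval of 1.34 to 2.60 (limma adjusted p = 0.0117). It was 2.11 among the 5 other arrays and 1.62 within the high-ceiling pair, and the adjusted p was 0.0162 to 0.0466 whichever array was left out. Uchl4, a mouse paralog of Uchl3 nearly identical to it, was measured by a probe of its own and overlapped between depots, with 5.17, 5.35, 5.88 and 5.26 in pCF and 5.69, 5.001 and 4.73 in iVF (difference 0.27, 95% interval -0.45 to 1.00, limma adjusted p = 0.634). Paralogs this close may share signal, so the split between Uchl3 and Uchl4 is uncertain. Uchl1, the neuronal member of the family, was not analysed here.

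Psmc6 was the third gene called. It encodes an ATPase of the ring that unfolds substrates at the mouth of the core. Its values were 12.24, 11.81, 12.16 and 12.28 on pCF arrays 1 to 4 and 10.46, 9.54 and 11.06 on iVF arrays 1 to 3. The 4 pCF arrays were close together and all above the iVF arrays, which spread more (SD 0.77 against 0.21). The difference was 1.77 with a standard error of 0.37 and a 95% interval of 0.89 to 2.65 (limma adjusted p = 0.0335). The call did not hold when single arrays were left out: the adjusted p was 0.0965, 0.0699, 0.0844 and 0.0733 without pCF arrays 1, 2, 3 and 4 and 0.0729 and 0.0784 without iVF arrays 1 and 2, and it was 0.0171 without iVF array 3. With quantile normalization applied again the difference was 0.88 (limma adjusted p = 0.267), and with cyclic loess 0.98 (0.0926).

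**Figure D2:**
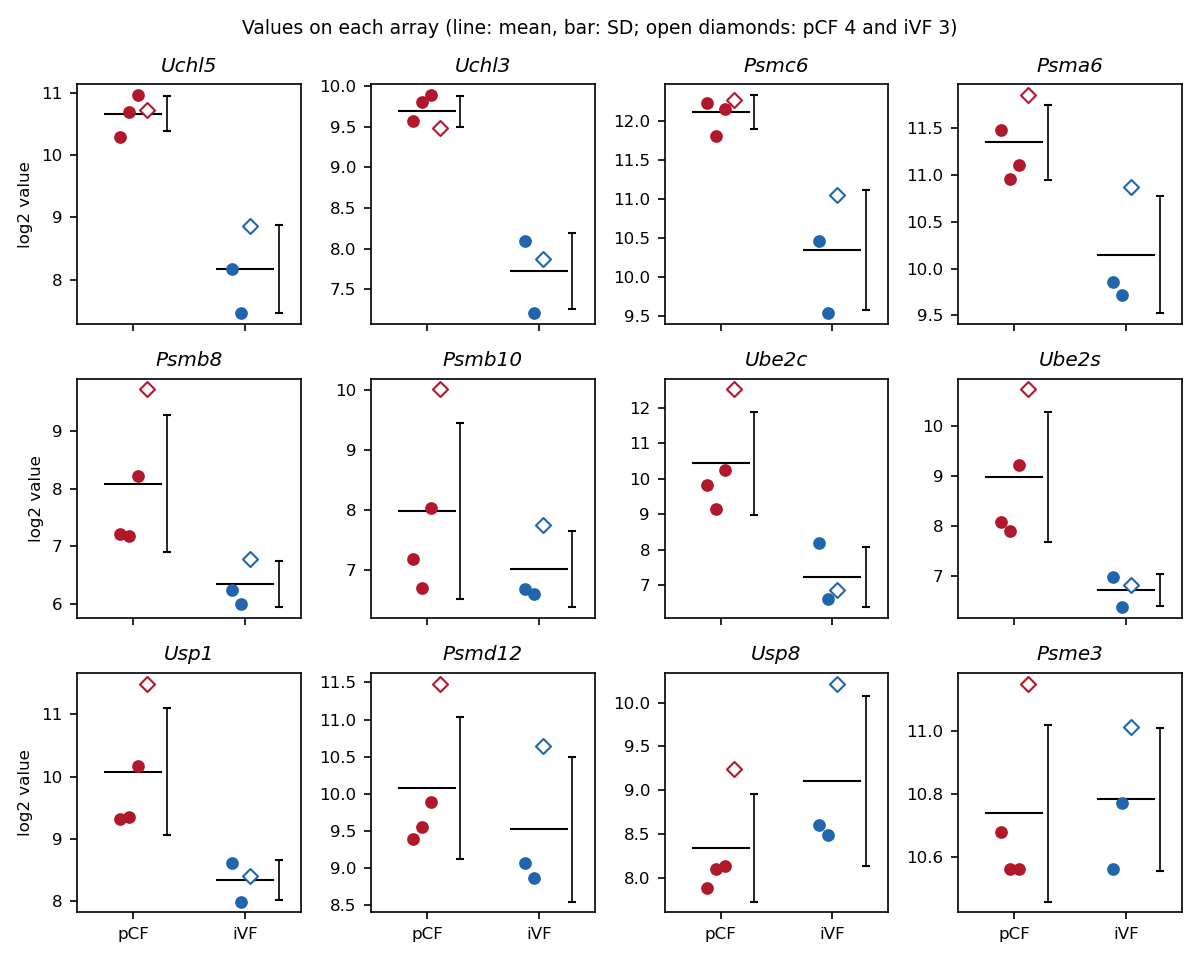
Deposited log2 value (vertical axis, a scale for each gene) of 12 members on every array, with pCF in red and iVF in blue; lines are means, bars are 1 SD, and open diamonds are pCF array 4 and iVF array 3. Uchl5, Uchl3 and Psmc6 are tight within pCF. Ube2c, Ube2s and Usp1 are highest on pCF array 4, but within iVF they are not highest on array 3. Psmc6, Psma6, Psmb8, Psmb10, Psmd12, Usp8 and Psme3 are highest in each depot on the open diamond.

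The other ATPases of the ring did not pass. Psmc1 had 9.34, 9.78, 8.57 and 10.78 on the pCF arrays and 7.75, 7.77 and 8.99 on the iVF arrays, and Psmc4 had 9.11, 9.46, 8.50 and 10.30 against 8.11, 7.67 and 8.50. pCF array 3 lay below iVF array 3 in Psmc1 and equalled it in Psmc4. Their differences were 1.45 ± 0.58 (SE) and 1.25 ± 0.45 (SE), with limma adjusted p-values of 0.183 and 0.144. Psmc5, another ATPase of the ring, differed by 0.18 (95% interval -0.77 to 1.12), and its sign turned when quantile normalization or cyclic loess was applied and without pCF array 4 or iVF array 1. Psmc1 and Psmc4, like other members below, were named after their values were seen. Psmc3ip carries the symbol of this family but encodes a meiotic recombination factor that was named for binding an ATPase subunit, and it differed by 0.19 (-0.22 to 0.61).

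None of the 8 genes named Psmd passed, 7 had a positive difference, and the median was 0.39. The lid subunits Psmd3, Psmd6, Psmd7, Psmd8, Psmd11 and Psmd12, which scaffold the regulatory particle, differed by 0.07 (Psmd8) to 0.56 (Psmd12). Psmd12 ranged from 9.39 to 11.49 in pCF and from 8.85 to 10.64 in iVF, highest in each depot on the high-ceiling pair. Psmd7, beside the deubiquitinase subunit of the lid, was 9.62, 9.57, 9.58 and 10.69 in pCF and 9.24, 9.46 and 10.29 in iVF. iVF arrays 1 and 2 lay below the pCF arrays and iVF array 3 within their range. Of the chaperones that assemble the base of the particle, Psmd10 differed by 0.78 (95% interval -0.28 to 1.83) and Psmd5 by -0.05 (-0.94 to 0.84). Psmd6, Psmd7 and Psmd8 had a negative difference after quantile normalization or cyclic loess, and Psmd8 also after centring on array medians.

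The 20S core was represented by 6 genes, all with a positive difference and none past the threshold, with a median of 1.05 as deposited, 0.90 after centring, 0.42 after quantile normalization and 0.41 after cyclic loess. After the last pair of scalings Psmb7 had a negative difference. Psma6, a subunit of the outer ring through which substrates enter, was 11.47, 10.95, 11.10 and 11.84 on pCF arrays and 9.86, 9.72 and 10.86 on iVF arrays. The depots did not overlap, and the nearest arrays were pCF array 2 and iVF array 3. Its difference was 1.20 ± 0.36 (SE), with a limma adjusted p of 0.0962, of 0.0334 without iVF array 3 and of 0.029 among the 5 other arrays. With any other single array left out, the limma adjusted p was 0.133 to 0.295. The Psma6 difference was 0.50 after quantile normalization (limma adjusted p = 0.436) and 0.46 after cyclic loess (0.259). The structural subunit Psmb1 differed by 1.14 (95% interval -0.09 to 2.36) and Psmb2 by 0.46 (-0.17 to 1.09). Both overlapped between depots.

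Of the immunoproteasome subunits, Psmb8 and Psmb10 were measured, and Psmb9 was not analysed here. Psmb8, which takes the place of the chymotrypsin-like subunit, was 7.22, 7.19, 8.22 and 9.72 on pCF arrays 1 to 4 and 6.25, 5.999 and 6.79 on iVF arrays 1 to 3. The depots did not overlap, and pCF array 4 stood highest. Its difference was 1.74 ± 0.65 (SE, 95% interval 0.19 to 3.29; limma adjusted p = 0.157), being 1.42 among the 5 other arrays and 2.93 within the high-ceiling pair. Psmb10, which takes the place of the trypsin-like subunit Psmb7, was 7.18, 6.70, 8.04 and 10.01 in pCF and 6.69, 6.60 and 7.74 in iVF. Only pCF arrays 3 and 4 lay above all iVF arrays, and the difference of 0.97 had an interval of -0.96 to 2.90.

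The constitutive partner Psmb7 was 11.24, 11.24, 11.66 and 12.03 in pCF and 10.33, 10.70 and 11.78 in iVF, a difference of 0.60 (95% interval -0.35 to 1.56). To ask whether the exchange subunit moved apart from its partner, Psmb10 minus Psmb7 was formed on each array. It was -4.06, -4.54, -3.62 and -2.02 in pCF and -3.64, -4.10 and -4.03 in iVF, where the offset of each probe cancels between depots. The depots differed by 0.37 in this measure (two-sided exact permutation test over 35 splits, p = 0.714, with 0.0286 the smallest p the design allows). Without pCF array 4 the value was -0.15. Interferon response genes on the same arrays had medians of 6.53 to 7.58 in pCF and 6.28 to 6.90 in iVF, with 0 of 7 past the limma threshold, and Ube2l6, the conjugating enzyme of the interferon-induced modifier Isg15, was 5.45 to 5.77 in pCF and 5.77 to 6.51 in iVF (difference -0.56, 95% interval -1.13 to 0.01). No pCF array was above any iVF array in Ube2l6, but pCF arrays 3 and 4 had the same value as iVF array 1. For Isg15 itself all pCF arrays lay above the iVF arrays (difference 0.23, 95% interval -0.15 to 0.61). Psme3, a nuclear activator that opens the core without ATP, differed by -0.04 (-0.59 to 0.50). It was lower in pCF by -0.77 after cyclic loess (limma adjusted p = 0.0411).

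Of the chaperones that help the core rings assemble, Psmg2 was 6.87, 7.26, 7.48 and 8.37 in pCF and 6.41, 6.09 and 6.98 in iVF, with iVF array 3 above pCF array 1. It differed by 1.00 (95% interval 0.04 to 1.97, limma adjusted p = 0.188). Psmg4 differed by 0.43 (-0.30 to 1.17).

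Among ubiquitin-activating genes Uba1y was the 1 measured. It is the Y-linked counterpart of Uba1, so its probe may share signal with that gene. It was 6.31, 5.72, 4.67 and 4.31 on pCF arrays 1 to 4 and 4.73, 4.70 and 4.69 on iVF arrays. pCF arrays 1 and 2 were high and arrays 3 and 4 were below all iVF arrays, while the SD of the iVF arrays was 0.02 (n = 3). Its difference was 0.55 (95% interval -0.64 to 1.73), 0.85 among the 5 other arrays and -0.38 within the high-ceiling pair.

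None of the 11 genes with a Ube2 symbol passed, 10 of them conjugating enzymes and the other Ube2cbp. Ube2c had the largest difference of any member. Ube2c and Ube2s work in sequence with the anaphase-promoting complex, the ligase that ends mitosis: Ube2c starts a chain and Ube2s lengthens it. Ube2c was 9.81, 9.15, 10.25 and 12.51 on pCF arrays 1 to 4 and 8.20, 6.62 and 6.85 on iVF arrays 1 to 3. The depots did not overlap, pCF array 4 stood above the other pCF arrays and iVF array 1 above the other iVF arrays. Its difference was 3.21 ± 0.84 (SE, 95% interval 1.20 to 5.22), and the limma adjusted p of 0.0641 missed the threshold. The gene passed in 3 of 16 alternatives, with 0.0433 after centring on array medians, 0.0358 after quantile normalization and 0.0424 when array set was a block. It missed in the other 13, with 0.0535 after cyclic loess and 0.0515 to 0.213 with 1 array left out.

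Ube2s ranked the 7 arrays in the same order as Ube2c, with 8.07, 7.89, 9.22 and 10.73 in pCF and 6.98, 6.36 and 6.82 in iVF. The depots again did not overlap, and the difference was 2.25 ± 0.70 (SE), with a limma adjusted p of 0.101. Within the high-ceiling pair the differences of Ube2c and Ube2s were 5.66 and 3.91, against 2.33 and 1.72 among the 5 other arrays. The cell cycle markers of the same arrays had medians of 10.38, 10.18, 10.23 and 12.22 in pCF and 8.18, 6.13 and 5.87 in iVF. Their part in the values of Ube2c and Ube2s was not tested.

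The other E2 genes had smaller differences. Ube2d2a, a broadly used E2, was 12.40, 12.32, 12.41 and 12.05 in pCF and 11.62, 11.71 and 10.79 in iVF. Its depots did not overlap, and its difference was 0.92 ± 0.27 (SE, limma adjusted p = 0.0897). Here the arrays of the high-ceiling pair were the lowest of each depot. The Ube2d2a difference was 0.08 after quantile normalization (limma adjusted p = 0.934) and 0.09 after cyclic loess (0.923). Ube2n, which builds chains used in signalling and DNA repair, was 10.52, 11.35, 10.32 and 10.44 in pCF and 10.22, 11.26 and 11.34 in iVF, a spread inside each depot wider than the difference of -0.28. Ube2nl, a copy of Ube2n whose probe may share its signal, differed by 0.22 (95% interval -0.67 to 1.11), and its difference was negative without iVF array 1.

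Ube2f, which conjugates Nedd8, was 8.17 to 8.54 in pCF and 7.67 to 9.11 in iVF, and its difference of 0.09 changed sign after each of the 3 rescalings and without iVF array 1 or 2. Ube2a, a partner of DNA damage and N-degron ligases, differed by 0.71 (95% interval -0.34 to 1.76), Ube2z by 0.45 (-0.25 to 1.15) and Ube2j1, an enzyme of the endoplasmic reticulum membrane, by -0.10 (-0.63 to 0.44). Ube2cbp, which matches the symbol rule but encodes a protein that binds Ube2c and acts as a ligase, differed by 0.13 (-0.25 to 0.51), with values of 4.94 to 5.28 over all arrays.

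**Figure D3:**
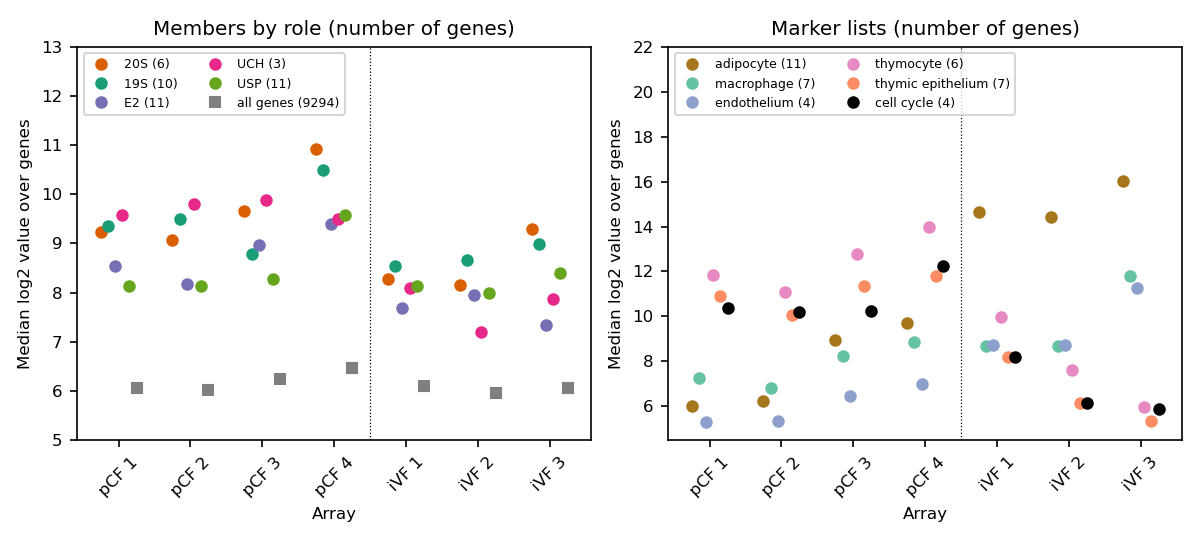
Median log2 value over the genes of each role (left) and over the genes of each marker list (right) on each array; the horizontal axis is the array, the number of genes is in the legend, and the dotted line parts the depots. The 20S and 19S medians are highest on pCF array 4 (10.93 and 10.49) and, within iVF, on array 3 (9.30 and 8.98). The UCH median is 9.49 to 9.89 on pCF and 7.20 to 8.09 on iVF arrays. With 3 genes in that class, it is the value of Uchl3 on every array.

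The ubiquitin-specific proteases, the largest family of deubiquitinases, gave 11 members, none past the threshold. The median difference was 0.16 as deposited, 0.01 after centring, -0.06 after quantile normalization and -0.05 after cyclic loess. Usp1, which removes ubiquitin from the clamp PCNA and from a Fanconi anaemia protein during DNA repair, was 9.31, 9.34, 10.16 and 11.50 in pCF and 8.61, 7.99 and 8.40 in iVF. The depots did not overlap and pCF array 4 was highest. The difference was 1.75 ± 0.56 (SE, 95% interval 0.41 to 3.09; limma adjusted p = 0.111). The pCF arrays also lay above the iVF arrays for Usp39, a splicing factor without protease activity (0.83, -0.17 to 1.82), and for Usp28, known for stabilising Myc (0.60, -0.02 to 1.23).

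The largest negative difference of any member was that of Usp8, which acts on receptors at endosomes. It was 7.89, 8.10, 8.13 and 9.25 in pCF and 8.61, 8.49 and 10.22 in iVF. The array of the high-ceiling pair was highest in each depot, and pCF array 4 overlapped with the iVF range. Its difference was -0.76 (95% interval -2.03 to 0.51), -0.51 among the 5 other arrays and -0.97 within the pair.

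Usp25 was 12.06, 11.51, 12.65 and 14.39 in pCF and 12.65, 12.22 and 13.19 in iVF, a difference of -0.03 with an interval of -1.67 to 1.60, so the data leave its direction unsettled. Its sign differed between the sets, with -0.36 among the 5 other arrays and 1.20 within the high-ceiling pair. Usp47, which acts in base excision repair, differed by -0.01 (-0.85 to 0.82), a sign that turned among the 5 other arrays. Usp30, a mitochondrial outer membrane enzyme, differed by -0.18, and Usp12, Usp22, Usp38 and Usp54 by 0.16, 0.31, 0.55 and 0.09, all with intervals that include 0. Usp12 and Usp22 had negative differences after quantile normalization or cyclic loess, and Usp54 after centring.

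Within each depot, many members were highest on the array of the high-ceiling pair. iVF array 3 was the highest iVF array for 36 of 48 members (75%), where this held for 46.4% of all genes. pCF array 4 was the highest pCF array for 33 members (68.8%), against 44.1% of all genes. Over the members the median shift of pCF array 4 from the mean of the other pCF arrays was 0.74, and that of iVF array 3 from the other iVF arrays was 0.61. Over all genes these shifts were 0.10 and 0.07. The members had higher values than all genes, with array medians of 7.86 to 9.53 against 5.96 to 6.46. Shares over genes of like value were not computed, so the excess is not read as a trait of the members. Of the 21 proteasome subunits and factors, 18 were highest on pCF array 4 and 20 on iVF array 3. Of the 3 hydrolases, 0 were highest on pCF array 4 and 1 on iVF array 3.

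With the array set as a block, 17 members were higher in pCF (35.4%), where the same fit called 11.6% of all genes higher. In that fit 1 member was lower, and 573 of all 9294 genes. The 14 added to the 3 already called were Psma6, Psmb8, Psmc1, Psmc4, Psmd10, Psmd12, Psmg2, Ube2a, Ube2c, Ube2d2a, Ube2s, Usp1, Usp28 and Usp39, and the lower gene was Usp8. The block fits the same shift of the pair in both depots. Among the genes added, Psmc1 shifted by 1.55 in pCF and 1.23 in iVF, but Ube2c by 2.78 and -0.56. Among the 5 other arrays alone 7 members were higher (14.6%), against 6.67% of all genes: the 3 called before with Psma6, Psmd10, Ube2d2a and Usp39. Within the pair itself there is 1 array per depot and no test. The median difference over the members was 0.44 among the 5 other arrays and 0.62 within the pair, and 40 and 39 of 48 members were positive. Over all 9294 genes the medians were 0.06 and 0.16, and 5263 and 5367 genes were positive. The set was defined from the array maxima and is not named in the labels, so what sets these arrays apart was not tested.

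**Figure D4:**
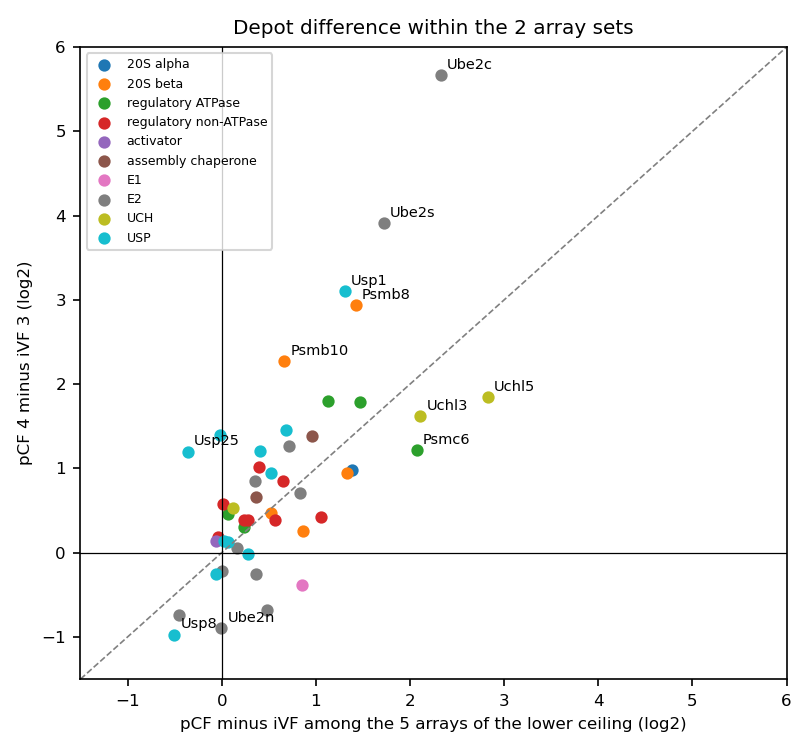
Depot difference of each member among the 5 other arrays (3 pCF minus 2 iVF, log2, horizontal axis) against the difference within the high-ceiling pair (pCF array 4 minus iVF array 3, log2, vertical axis), coloured by the class its symbol prefix gives; the dashed line is equality. Ube2c, Ube2s, Usp1, Psmb8 and Psmb10 lie above the line, and Uchl5, Uchl3 and Psmc6 below it.

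Identical values were common: 17 of the 48 members (35.4%) had the same deposited value, to every digit given, on at least 2 arrays, where 19% of all genes did. Usp54 was at 5.51 on 5 of the 7 arrays and Usp30 at 6.39 on 4. The reason for the ties was not tested.

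A further list of pathway genes held, among others, ligases, adaptors, shuttle factors and deubiquitinases of other families. It also held modifiers related to ubiquitin and proteasome factors outside the symbol rule. Of these genes 33 were measured. None passed by limma in either direction, with 6 higher and 1 lower at an unadjusted p under 0.05 (16.1% and 8.31% of all genes). Their median difference was 0.23, and 19 were positive. The pCF arrays lay above the iVF arrays for 6 of them and below for 1, where this held for 18% and 8.78% of all genes. Pomp, which guides assembly of the core, differed by -0.08 (95% interval -1.42 to 1.25).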

How the data were processed

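The table deposited by the authors holds log2 values, 1 for each probe on each array. The submitters' processing notes name RMA and Affymetrix Expression Console. Versions and background settings were not given in the sources used here, and scale and centring stay unknown. Of 11949 probes, 9352 had 1 gene symbol, 522 several and 2075 none. Symbols were updated through Entrez identifiers (5789 probes matched RefSeq, GRCm38.p6, 188 symbols changed). The probe with the highest mean was kept for 52 genes with several, leaving 9294 genes with no filter on low values, so all 48 members were tested. Array median values were 5.99 to 6.37, and the number of arrays limits the precision.

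Differences, pCF minus iVF, were fitted in R 4.3.3 by limma 3.58.1 (lmFit, eBayes, all 7 arrays, no covariate, two-sided, 5 residual degrees of freedom), adjusted over all genes. The fit was tested on simulated data. Figures used Python 3.11.15 and matplotlib 3.10.9. The members, gene lists, alternatives and the array set were chosen with earlier results of these data known. Genes named were all members past the threshold, the member with the largest and the smallest difference of each role, and a fixed list of catalytic subunits, activators and enzymes. A further 12, among them Ube2s, Psmb1 and Usp8, were named after their values were seen, as were members described by their ranges. Alternatives were a filter dropping the dimmest 25% of genes, 3 rescalings, trend and robust fitting, blocks for replicate number and array set, the 5 arrays of the lower ceiling, the mean over probes and each array left out.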

Additional observations from a re-analysis of the deposited data

Results flagged for a closer look

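Of the 48 members and Pomp, 8 stood far higher on pCF array 4 than on the other pCF arrays for the group's range. Chance flags about 1 in 20 independent groups, but these genes share the same arrays. The share flagged over all genes was not computed. For 44.1% of all genes the highest pCF array was pCF array 4, so the 8 are not read as a trait of the members. Psmc5 was 9.13 there against 8.01 to 8.17 on the other pCF arrays. For the lid subunits, Psmd3 was 7.88 against 6.87 to 7.03, Psmd6 was 9.21 against 8.47 to 8.54 and Psmd7 was 10.69 against 9.57 to 9.62. Among the proteases, Usp12 was 7.90 against 7.72 to 7.74 and Usp38 was 10.03 against 8.48 to 8.71. Usp39 was 9.57 against 8.13 to 8.28, and Usp47 was 10.13 against 9.09 to 9.26. On iVF array 3, which shares its ceiling, each of these 8 genes was also highest within its depot. A ninth gene, Usp54, was 5.71 on pCF array 2 and 5.51 on each of the other pCF arrays.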

How the results depend on the processing

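Uchl5 and Uchl3 passed in 15 of 16 alternatives each and Psmc6 in 6 of 16. Blocking by replicate number, in which pCF array 4 has no partner, limma called 0 members higher and 0 lower and 0 of all genes higher and 0 lower, with 9 members higher and 1 lower and 1273 genes higher and 861 lower at an unadjusted p under 0.05. The deviations of same-numbered samples from their depot means correlated at 0.05, 0.05 and -0.50. With 4 pCF and 3 iVF arrays this cannot settle whether same-numbered samples came from the same animal, and no label says so. Blocking by array set, 17 members were higher and 1 lower, and 1081 and 573 of all genes. Quantile normalization applied again gave 5 members higher (10.4%, against 4.69% of all genes) and 0 lower, with 474 genes lower. Cyclic loess gave 2 members higher (4.17%, against 4.87%) and 1 lower, with 571 genes lower, and the 5 arrays of the lower ceiling 7 members higher. Leaving out 1 array gave 2 to 4 members higher, 0 lower, 114 to 569 genes higher and 62 to 274 lower. Psmb10 minus Psmb7 differed by -0.20 among the 5 arrays (two-sided exact permutation p = 0.7). With an array left out this measure differed by -0.15 to 0.69, -0.15 being without pCF array 4. It differed by 1.03 after quantile normalization and 0.95 after cyclic loess (two-sided exact permutation p = 0.286 and 0.257). Of 780 values of the 48 members and Pomp, 682 kept direction and side of the threshold, 61 changed sign while passing in neither fit, 25 newly passed and 12 no longer passed. The filter on dim genes, trend and robust fitting and the mean over probes left the differences unchanged, so direction could not turn there. As 3 members passed in the main fit, most values that kept their side passed in neither fit. The cause of these changes was not tested. Signal over background is unknown here.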
